A study of Mus musculus with 58 samples.

Results

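The genes described here encode chromatin remodellers and histone modifiers. They are the 79 genes, of 9636 in the deposited count table, whose symbols begin with Chd and a digit, Kmt, Kdm, Smarc, Arid, Hdac, Setd or Brd and a digit, with Kdm5c and Kdm6a left out. The rule used symbols only and no measured value, but the 79 genes were chosen with earlier results of these data known. No filter on low values was applied here, although the lowest mean count of any gene in the table was 270.1. The 79 genes fall into 13 Smarc, 13 Kdm, 11 Hdac, 10 Chd, 9 Setd, 8 Kmt, 8 Brd and 7 Arid genes. Brd3os, which matched the rule, is a noncoding RNA on the strand opposite Brd3, so reads of this pair cannot be told apart if counting ignored strand, a setting not given in the sources used.

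The study measured poly(A) RNA by sequencing in the somatosensory cortex of C57BL/6J mice of both sexes, 2 to 4 months old, at a chronic time after a closed head injury on each of 5 days in a row (5xCHI), or after sham procedures. The chronic times named by the study were about 18 and 34 days after the last injury, and the labels give no day for a single mouse. After each injury or sham procedure, mice were injected with the p38 mitogen-activated protein kinase inhibitor SB239063 (SB, 20 mg/kg) or with saline vehicle. The 58 libraries comprised 19 from 5xCHI SB mice (8 male, 11 female), 20 from 5xCHI vehicle mice (8 male, 12 female), 5 from sham SB mice (2 male, 3 female) and 14 from sham vehicle mice (5 male, 9 female). The mice came in 4 labelled cohorts of each sex, M1 to M4 and F1 to F4, so cohort is nested in sex. Counts per library summed to between 28316280 and 49158277, and the smallest count of any gene in any library was 101. Levels are given as CPM, the share of a library's counts scaled to the usual common total, after adjustment by the trimmed mean of M values (TMM). Slc17a7, a marker of cortical excitatory neurons, had at least 1112 CPM and Gad1, a marker of inhibitory neurons, at least 295 CPM in every library, and the astrocyte gene Slc1a2 and the myelin gene Mbp were present in all. On the first 4 principal components 4 libraries stood apart from the rest: female 5xCHI SB replicate 8, female sham vehicle replicates 1 and 7, and male sham vehicle replicate 2. In this bulk tissue, fewer cells of a type and less RNA per cell cannot be told apart.

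DNA in the nucleus is wrapped on histones, and these proteins set how open and how marked that packaging is. Chd proteins and the Smarca members of the SWI/SNF (BAF) and ISWI complexes are ATPases that slide, space or evict nucleosomes, and most other Smarc proteins and Arid1a, Arid1b and Arid2 are subunits of SWI/SNF complexes. Kmt and Setd enzymes methylate lysines, mostly of histones, and Kdm enzymes remove those methyl groups. Hdac enzymes remove acetyl groups, and Brd proteins bind acetylated lysines through bromodomains. In humans, mutations in several of these genes, among them ARID1B and CHD8, cause neurodevelopmental disorders.

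Promoter sequence was available from RefSeq for 59 of the 79 genes, in 81 windows of 250 bases before an annotated start. Those of Chd8, Setd2 and Smarcal1 are printed because these were among the genes of smallest p in the comparison of 5xCHI SB with sham vehicle mice. In GRCm38.p6 they lie at chr14:52257761-52258010 (minus strand, Chd8), chr9:110532347-110532596 (plus strand, Setd2) and chr1:72583001-72583250 (plus strand, Smarcal1), and each is given 5′ to 3′ on its gene's strand. Capitals mark the GC box (GGGCGG) and the CCAAT box (CCAAT), searched on both strands, with overlapping GC boxes merged into 1 stretch.
Chd8: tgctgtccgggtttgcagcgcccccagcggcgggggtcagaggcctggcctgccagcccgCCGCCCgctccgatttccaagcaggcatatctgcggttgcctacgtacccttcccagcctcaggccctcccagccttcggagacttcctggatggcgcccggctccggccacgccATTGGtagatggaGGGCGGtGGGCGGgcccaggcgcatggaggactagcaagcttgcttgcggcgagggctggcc
Setd2: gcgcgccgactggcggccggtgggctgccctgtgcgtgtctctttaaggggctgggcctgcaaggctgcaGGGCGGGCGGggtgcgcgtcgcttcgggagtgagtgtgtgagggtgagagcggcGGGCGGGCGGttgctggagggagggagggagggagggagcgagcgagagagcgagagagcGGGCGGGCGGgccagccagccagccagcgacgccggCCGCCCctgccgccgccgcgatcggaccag
Smarcal1: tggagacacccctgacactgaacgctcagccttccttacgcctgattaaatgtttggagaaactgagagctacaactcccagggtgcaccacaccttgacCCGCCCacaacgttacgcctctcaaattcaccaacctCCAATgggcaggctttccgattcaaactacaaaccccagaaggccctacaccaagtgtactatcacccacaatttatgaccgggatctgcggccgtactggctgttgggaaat

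The GC box letters occurred in 55 of the 81 windows (67.9%), against 59% of the windows of all genes in the count table and 32.7% of all RefSeq windows. A ratio of observed to expected CpG above 0.6 was found in 76.5% of the chromatin gene windows, against 68.2% for the genes of the table and 34% for RefSeq. The CCAAT box was in 30.9% of them, against 34.6% for genes of the table, the TATA box (TATAAA) in 4.94%, against 5.81%, the ETS core (CCGGAAG) in 12.3%, against 13.2%, and the E-box (CACGTG) in 1.23%, against 8.56%. The windows of Chd8 and Setd2 were GC-rich, at 70.0% and 76% G or C, and that of Smarcal1 held 52%.

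Levels per transcript length, in CPM per kilobase of exon, placed the family near the middle of the table. The median chromatin gene had 8.32 CPM per kilobase in the 14 sham vehicle libraries, against 10.0 over all genes. The highest was Smarcc2, a SWI/SNF core subunit, at 78.7 ± 7.99 CPM per kilobase (SD, n = 14). Chd3, a nucleosome remodelling ATPase of the NuRD complex, followed at 70.3 ± 8.07 CPM per kilobase, and Hdac11, the class IV deacetylase, at 57.3 ± 7.68 CPM per kilobase. The ranges over libraries of these neighbours overlapped. The lowest were Arid5a, an ARID protein that also binds RNA, at 0.934 ± 0.244, Chd7 at 1.76 ± 0.403 and Kdm2b, a demethylase of histone H3 lysine 36, at 2 ± 0.239 CPM per kilobase. Chd8 stood at order 31 of 79 with 9.68 ± 0.665 CPM per kilobase. Among the class I deacetylases, Hdac3 and Hdac2 had 21.2 and 20.5 CPM per kilobase, Hdac1 had 8.48 and Hdac8 had 2.81. Chromatin genes were long: their median exon length was 8019 bases, against 5031 bases over all genes with a length.

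The first comparison asked what repeated injury left behind at a chronic time, in mice given vehicle. None of the 79 chromatin genes passed an adjusted p of 0.05 between 5xCHI vehicle and sham vehicle mice, and neither did any other gene of the table, by edgeR's quasi-likelihood test or, as alternatives, by DESeq2 and limma voom. At an unadjusted p under 0.05 there was 1 of the 79, Chd8, against 1.75% of all genes, and there was none without the 4 libraries that stood apart. Fold changes were above 0 for 42 of the 79 and for 49.4% of all genes, or for 20 of the 79 with the transcript length trend of each library removed. Their median log2 fold change was 0.0053, against -0.00067 over all genes. Cohort by cohort, the median was above 0 in 6 of 8, from -0.049 in M2 to 0.097 in M1. The range over the family was -0.12 to 0.095, with a median standard error of 0.054. Over all genes, log2 fold changes ran from -0.51 to 0.26 and none passed. The lack of a passing gene therefore does not exclude differences well above a few percent in a single gene.

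Chd8 encodes an ATPase that binds promoters of active genes. Its lowest, median and highest levels were 147, 170.1 and 187 CPM in the 20 5xCHI vehicle libraries, against 141, 163 and 173 CPM in the 14 sham vehicle libraries. The groups overlapped over most of their range, and the group mean was higher after injury in 7 of 8 cohorts (log2 fold change 0.091 ± 0.033 (SE), unadjusted p = 0.00872 and adjusted p = 1). Chd8 was picked by its p from these same libraries, so that cohort count is not separate support. Of the 10 Chd genes, Chd8 included, 8 had a fold change above 0, with a family median of 0.022. Chd1 was at 0.076 ± 0.066 (SE) and Chd7 at -0.025 ± 0.082. Without the 4 libraries that stood apart, the fold change of Chd8 was 0.060 and that of Chd1 was -0.014. With the transcript length trend removed, Chd8 was at 0.042. By sex, 6 of 10 Chd genes were above 0 in males and 4 of 10 in females.

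Writers and erasers of histone methylation gave small values of both signs. Among Setd genes, 6 of 9 were above 0, with Setd2, which trimethylates histone H3 lysine 36, at 0.084 ± 0.059 and Setd4 at -0.077 ± 0.10. Setd2 was at -0.0073 without the 4 libraries that stood apart. Among Kmt genes, 3 of 8 were above 0, from Kmt2e at 0.063 ± 0.046 to Kmt5c, which methylates histone H4 lysine 20, at -0.065 ± 0.099. Kdm genes were above 0 in 11 of 13 cases, led by Kdm4c, a histone H3 lysine 9 demethylase, at 0.066 ± 0.049, and by Kdm1a, a flavin-dependent demethylase, at 0.044 ± 0.037, while Kdm6b, a histone H3 lysine 27 demethylase, was at -0.12 ± 0.15. No unadjusted p of these Setd, Kmt and Kdm genes was under 0.05. By sex, 10 of 13 Kdm genes were above 0 in males and 5 of 13 in females.

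Deacetylases, SWI/SNF subunits and bromodomain genes also showed no passing difference. Of the 11 Hdac genes, 1 was above 0, Hdac9, a class IIa deacetylase, at 0.095 ± 0.066, and among the others were Hdac10, a polyamine deacetylase, at -0.098 ± 0.098, and Hdac6, which deacetylates tubulin, at -0.067 ± 0.054. By sex, 1 of 11 Hdac genes was above 0 in males and 6 of 11 in females. The class I enzymes Hdac1, Hdac2, Hdac3 and Hdac8 were at -0.0082 ± 0.050, -0.033 ± 0.059, -0.046 ± 0.051 and -0.0068 ± 0.064. Smarc genes were above 0 in 6 of 13 cases, between Smarcd3 at -0.049 ± 0.074 and Smarca1, the ISWI ATPase SNF2L, at 0.060 ± 0.065. Arid genes lay between Arid5a at -0.030 ± 0.10 and Arid1a at 0.058 ± 0.050. Genes with a Brd symbol lay between the noncoding RNA Brd3os at -0.071 ± 0.054 and Brd8 at 0.031 ± 0.038.

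**Figure D1:**
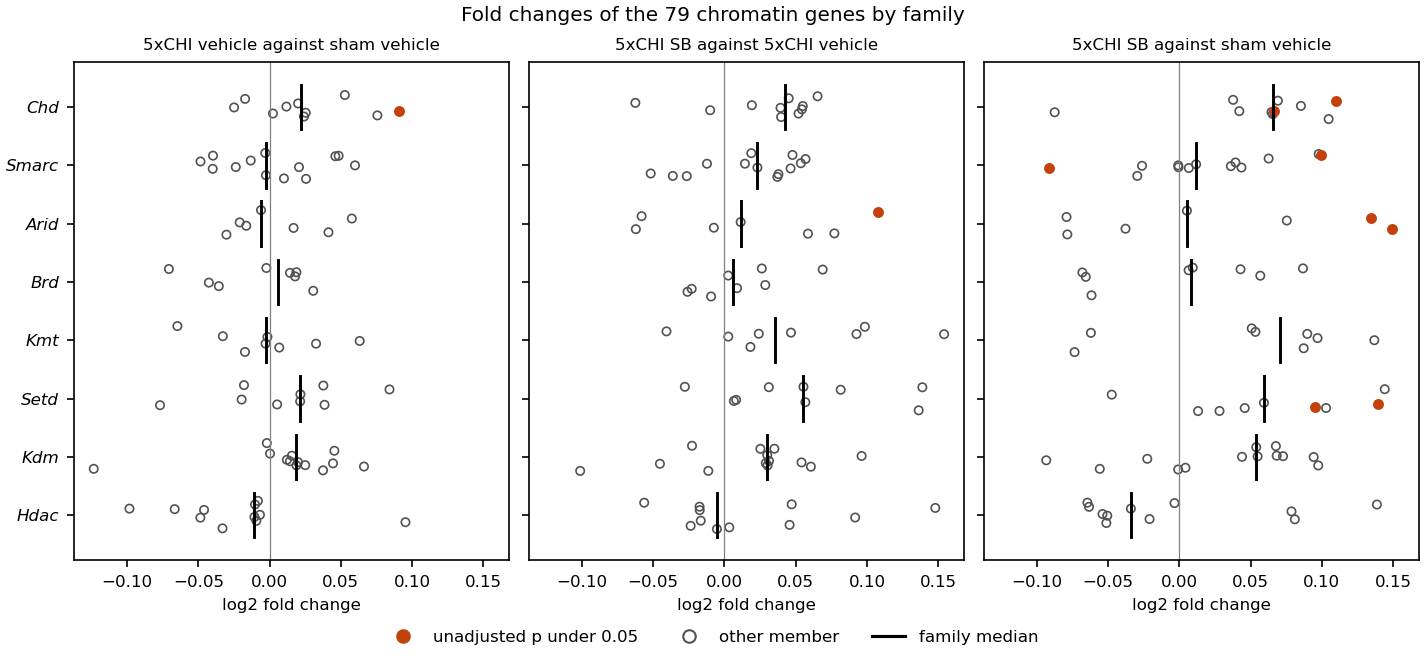
Log2 fold changes of the 79 chromatin genes, 1 point per gene, by family down the page, for 3 comparisons across the page; black bars are family medians and filled points have an unadjusted p under 0.05. All points lie within -0.12 and 0.15, and 1 gene is filled for 5xCHI vehicle against sham vehicle, 1 for 5xCHI SB against 5xCHI vehicle and 8 for 5xCHI SB against sham vehicle.

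The second comparison asked what the p38 inhibitor changed in injured mice. Again no chromatin gene passed an adjusted p of 0.05, nor did any other gene. Among the 79, 1 gene, Arid1b, had an unadjusted p under 0.05, against 7.06% of all genes, a share below the background; without male sham vehicle replicate 4 there were 3. Fold changes were above 0 for 55 of 79 chromatin genes and 52.2% of all genes, with a median of 0.029 against 0.0034. With the transcript length trend of each library removed, 46 of 79 were above 0. The cohort medians were above 0 in 5 of 8, from -0.038 in M4 to 0.095 in F2. Without female 5xCHI SB replicate 10, 47 of 79 were above 0 and the median was 0.015.

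Arid1b is a DNA-binding subunit of canonical SWI/SNF complexes. Its lowest, median and highest levels were 86.6, 109 and 121 CPM in the 19 5xCHI SB libraries, against 80.2, 101 and 114 CPM in the 20 5xCHI vehicle libraries. The ranges overlapped, and the 5xCHI SB mean was the higher one in 8 of 8 cohorts (log2 fold change 0.11 ± 0.042 (SE), unadjusted p = 0.0124 and adjusted p = 0.655). Arid1b was picked by its p from these same libraries, so that cohort count is not separate support. The Arid1b paralogue Arid1a was at 0.077 ± 0.045 (SE), or 0.047 without female 5xCHI SB replicate 10. Arid4b, a subunit of a SIN3 corepressor complex, was at -0.062 ± 0.052. With the transcript length trend removed, Arid1b was at 0.075 and Arid1a at 0.048.

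By role, the genes of smallest p in this comparison were spread over the families. Setd genes had the highest family median at 0.055, with 8 of 9 above 0. Setd1b, a histone H3 lysine 4 methyltransferase, was at 0.14 ± 0.077 and at 0.082 without female 5xCHI SB replicate 10, while Setd3, which methylates actin, was at -0.028 ± 0.028. Kmt2d, another histone H3 lysine 4 methyltransferase, was at 0.15 ± 0.090, or 0.088 without that library, and Kmt5a at -0.041 ± 0.047. Of the remodelling ATPases, Chd8 was at 0.019 ± 0.030, Chd4 at 0.054 ± 0.029, or 0.035 with the length trend removed, Chd9 at 0.065 ± 0.052 and Chd7 at -0.063 ± 0.074. The class IIa deacetylases Hdac4 and Hdac7 were at 0.092 ± 0.047 and 0.15 ± 0.10. Hdac4 was at 0.050 with the length trend removed, and Hdac7 at 0.093 without female 5xCHI SB replicate 10. The class I enzymes Hdac1, Hdac2, Hdac3 and Hdac8 were at -0.056 ± 0.046, -0.018 ± 0.053, -0.017 ± 0.046 and 0.0034 ± 0.058. Kdm4b, a histone H3 lysine 9 demethylase, was at 0.096 ± 0.052, and Kdm1b, a histone H3 lysine 4 demethylase, at -0.10 ± 0.062. Smarcc1, a SWI/SNF core subunit, was at 0.057 ± 0.032 and Smarce1 at -0.052 ± 0.034, and the bromodomain genes Brd1 and Brd3 were at 0.069 ± 0.043 and -0.026 ± 0.038. Brd1 was at 0.042 without female 5xCHI SB replicate 10.

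Cell type markers were set beside these values, and none passed the adjusted threshold in this comparison. The marker lists were chosen with earlier results of these data known. All 16 genes of an oligodendrocyte and myelin list were lower in 5xCHI SB than in 5xCHI vehicle mice, with a median log2 fold change of -0.33. All 16 had an unadjusted p under 0.05, against 7.06% of all genes, and none passed the adjusted threshold. Their summed level was 2722 to 9329 CPM in 5xCHI SB, 5655 to 13359.7 CPM in 5xCHI vehicle, 6623 to 8808 CPM in sham SB and 3429.5 to 21901 CPM in sham vehicle libraries, with no marker at 0. Their median deviation from the means over all libraries was -1.27 to 0.37 log2 CPM in 5xCHI SB and -0.35 to 0.85 in 5xCHI vehicle libraries. It was lowest in male 5xCHI SB replicate 8, with -1.25 in female replicate 8. No marker values without these libraries are given. All 34 cytosolic ribosomal protein genes were lower as well, with a median of -0.079, as were all 23 oxidative phosphorylation genes, with a median of -0.058. Higher in 5xCHI SB mice were 8 of 8 markers of upper cortical layers (median 0.16) and 5 of 5 of the striatum (0.30). So were 9 of 9 of endothelial cells (0.081) and 4 of 4 of mural cells (0.079). Of neuron markers, 7 of 10 excitatory (0.039) and 6 of 9 inhibitory (0.047) were higher. Lower were 7 of 11 deep layer (-0.086), 8 of 11 astrocyte (-0.041), 9 of 10 microglia (-0.040) and 6 of 8 oligodendrocyte precursor genes (-0.12). Between 5xCHI vehicle and sham vehicle mice, 33 of 34 ribosomal protein genes (median -0.060) and 21 of 23 oxidative phosphorylation genes (-0.085) were also lower after injury. There all 16 myelin genes were higher (0.081), as were 5 of 8 upper layer and 3 of 5 striatal markers. Also higher were 9 of 11 deep layer (0.034), 8 of 10 microglia (0.064), 8 of 9 endothelial (0.020) and 7 of 11 astrocyte markers (0.027). Excitatory neuron, inhibitory neuron, mural cell and oligodendrocyte precursor markers were higher in 6 of 10, 4 of 9, 2 of 4 and 4 of 8 cases. Of the ribosomal, oxidative phosphorylation and myelin genes, 2 had an unadjusted p under 0.05, both of oxidative phosphorylation. The part of these lists in the chromatin genes' values was not tested.

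The third comparison set 5xCHI SB mice against sham vehicle mice and shares its libraries with both comparisons above. No gene passed here either: the smallest adjusted p among chromatin genes was 0.329. At an unadjusted p under 0.05 there were 8 of 79, 7 higher and 1 lower in 5xCHI SB mice. That is 10.1%, a share below the 12.6% of all genes. With 1 male sham vehicle library left out at a time, the count was 10, 5, 9, 5 and 12 without replicate 1, 2, 3, 4 and 5, while that over all genes was 441 to 1742 of 9636. The family as a whole had 52 of 79 above 0, against 50.2% of all genes, or 30 with the transcript length trend removed, and a median of 0.043 against 0.00036. By cohort the median was above 0 in 5 of 8, from -0.043 in M4 to 0.17 in M1. The median was 0.025 without female 5xCHI SB replicate 10, 0.022 without male sham vehicle replicate 2 and 0.024 without replicate 4. Without the 4 libraries that stood apart, 2 of 79 and 432 of 9636 genes had an unadjusted p under 0.05 and the median was 0.018.

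Remodelling ATPases were among the genes of smallest p. Chd8 had lowest, median and highest levels of 155, 167 and 199 CPM in 5xCHI SB mice, against 141, 163 and 173 CPM in sham vehicle mice (log2 fold change 0.11 ± 0.034 (SE), unadjusted p = 0.00192 and adjusted p = 0.329). With the transcript length trend of each library removed, this fold change was 0.021, and without the 4 libraries that stood apart it was 0.074. Its 5xCHI SB mean was above the sham vehicle mean in 7 of 8 cohorts, while the libraries overlapped from the lowest 5xCHI SB to the highest sham vehicle value. As Chd8 was picked by p from these libraries, that cohort count is not separate support. Chd4, the main NuRD ATPase, was at 0.066 ± 0.032 (SE) and Chd7 at -0.087 ± 0.083, the lowest of its family, and Smarcal1, a helicase that anneals DNA at stalled replication forks, was at 0.10 ± 0.047. Chd4 was at 0.025 with the length trend removed, and Smarcal1 at 0.050 without the 4 libraries that stood apart.

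SWI/SNF subunits differed in sign. Arid1b reached 86.6, 109 and 121 CPM as lowest, median and highest level in 5xCHI SB mice, against 72.9, 102 and 121 CPM in sham vehicle mice. The sham vehicle range enclosed that of the 5xCHI SB group (log2 fold change 0.15 ± 0.047 (SE), unadjusted p = 0.00259 and adjusted p = 0.329). Arid1a had 114, 156 and 229 CPM in 5xCHI SB mice, against 114, 138 and 167 CPM in sham vehicle mice, with log2 fold change 0.13 ± 0.051 (SE), unadjusted p = 0.0106 and adjusted p = 0.351. Its highest value came from female 5xCHI SB replicate 10, without which the fold change was 0.10. With the length trend removed, Arid1b was at 0.081 and Arid1a at 0.071. The lowest Arid gene was Arid4a, of a SIN3 corepressor complex, at -0.079 ± 0.057. Smarce1 was the 1 gene of the 8 with a lower level, averaging 56.5 ± 5.01 CPM in 5xCHI SB mice and 60.2 ± 4.07 CPM in sham vehicle mice (SD, n = 19 and 14), with log2 fold change -0.092 ± 0.039 (SE), unadjusted p = 0.021 and adjusted p = 0.363.

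Among methyltransferases, Setd2 averaged 104 ± 12.8 CPM in 5xCHI SB mice and 95.5 ± 14.8 CPM in sham vehicle mice (SD, n = 19 and 14). Its fold change of 0.14 ± 0.060 (SE, unadjusted p = 0.0242, adjusted p = 0.366) was 0.045 without the 4 libraries that stood apart and 0.084 with the length trend removed. Setd5, a SET-domain protein linked to intellectual disability in humans, was at 0.095 ± 0.047, or 0.0077 with the length trend removed and 0.029 without the 4 libraries. Also higher were Kmt2e at 0.087 ± 0.046, Setd1b at 0.14 ± 0.088 and Kmt2d at 0.14 ± 0.10, while Kmt5a was at -0.074 ± 0.052 and Setd3 at -0.047 ± 0.032. Without female 5xCHI SB replicate 10, Setd1b was at 0.086 and Kmt2d at 0.067. Erasers and readers did not reach an unadjusted p of 0.05: Kdm4c was at 0.097 ± 0.050, Kdm6b at -0.093 ± 0.15 and Brd1 at 0.087 ± 0.049. Neither did the noncoding RNA Brd3os, at -0.068 ± 0.054. Of the 11 Hdac genes, 3 were above 0, from Hdac1 at -0.065 ± 0.051, with Hdac7 at 0.14 ± 0.11, or 0.080 without that library, at the other end; Hdac2, Hdac3 and Hdac8 were at -0.051 ± 0.060, -0.063 ± 0.051 and -0.0034 ± 0.065. Beside these values, the 34 cytosolic ribosomal protein genes were all lower in 5xCHI SB than in sham vehicle mice, with a median of -0.14. Of them, 20 had an unadjusted p under 0.05, against 12.6% of all genes. The 16 oligodendrocyte and myelin genes were all lower too, with a median of -0.27 and 8 at that p. All 23 oxidative phosphorylation genes were lower (median -0.14, 14 at that p). Higher were 8 of 8 upper layer markers (median 0.17, 4 at that p), 5 of 5 striatal (0.22, 1 at that p), 8 of 9 endothelial (0.12, 3 at that p) and 4 of 4 mural cell markers (0.066, 1 at that p). Other lists were mixed, with 6 of 10 excitatory neuron, 6 of 9 inhibitory neuron and 7 of 11 deep layer markers higher. Lower were 6 of 11 astrocyte, 5 of 10 microglia and 5 of 8 oligodendrocyte precursor genes. The part of these lists was not tested.

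**Figure D2:**
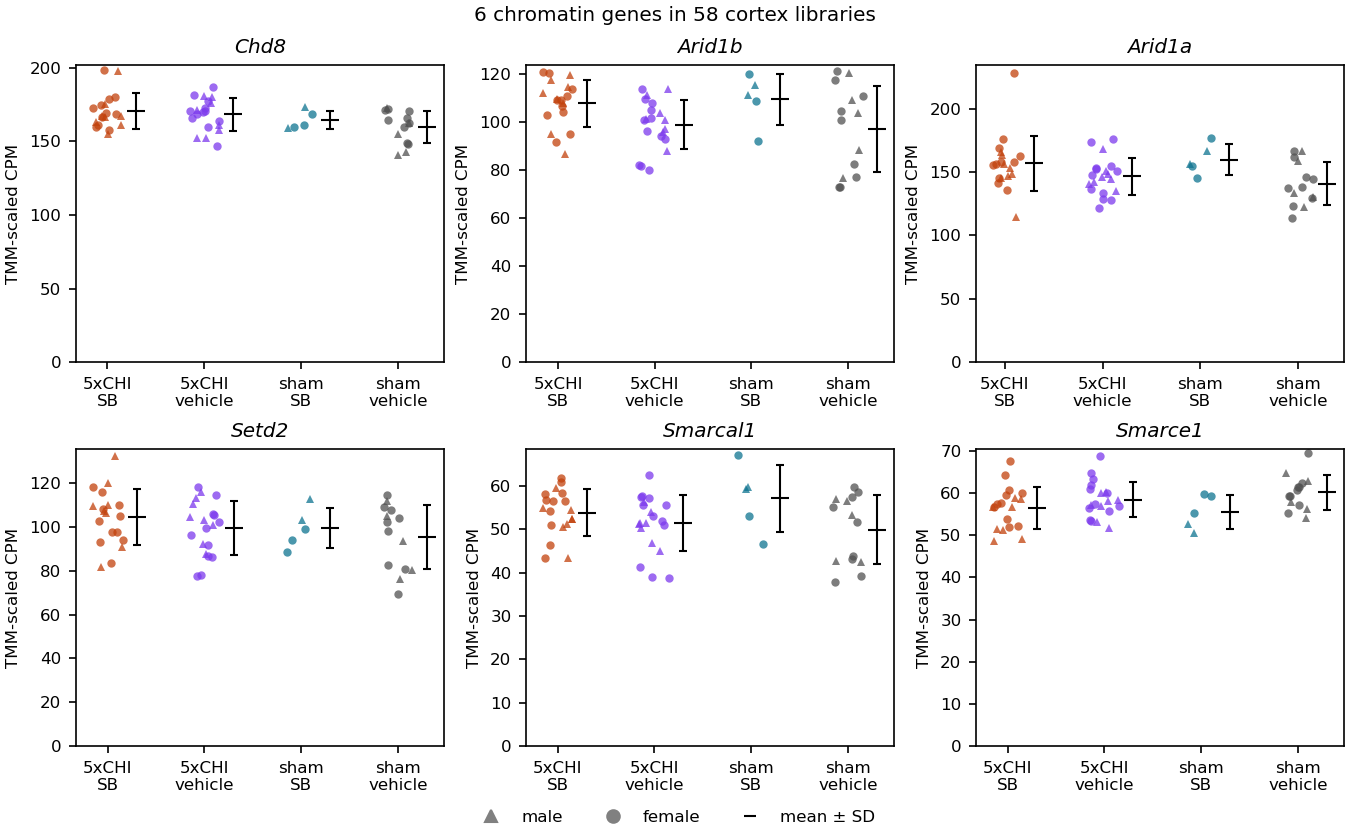
TMM-scaled CPM of Chd8, Arid1b, Arid1a, Setd2, Smarcal1 and Smarce1 in each of the 58 libraries by condition, with triangles for males, circles for females and the mean ± SD at the side of each group. Groups overlap in all 6 panels; Chd8 lies between 155 and 199 CPM in 5xCHI SB mice and between 141 and 173 CPM in sham vehicle mice.

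No chromatin gene, and no other gene, separated the groups without overlap in any of these comparisons or in that of sham SB with sham vehicle mice. The class I deacetylases showed as much. Hdac1 averaged 27.4 ± 3.11 CPM in 5xCHI SB, 28.8 ± 2.85 in 5xCHI vehicle, 24.7 ± 3.08 in sham SB and 29.2 ± 4.71 in sham vehicle mice (SD, n = 19, 20, 5 and 14). Hdac2 averaged 87.1 ± 11.2 CPM in 5xCHI SB, 89.3 ± 10.3 in 5xCHI vehicle, 81.6 ± 10.5 in sham SB and 91.8 ± 11.4 in sham vehicle mice. Hdac3 averaged 80.6 ± 11.1 CPM in 5xCHI SB, 82.4 ± 9.08 in 5xCHI vehicle, 73.4 ± 9.62 in sham SB and 85.8 ± 15.7 in sham vehicle mice. Hdac8, which lies on the X chromosome, averaged 13.8 ± 1.75 CPM in 5xCHI SB, 13.7 ± 1.87 in 5xCHI vehicle, 13.6 ± 2.27 in sham SB and 13.6 ± 2.02 in sham vehicle mice. The ranges of all conditions overlapped for each gene. These means do not account for cohort, and sham SB libraries came from 4 of the 8 cohorts; with cohort in the fit, the log2 fold changes of sham SB against sham vehicle were -0.13 ± 0.079, -0.14 ± 0.092, -0.14 ± 0.079 and 0.031 ± 0.099 (SE) for Hdac1, Hdac2, Hdac3 and Hdac8.

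The effect of SB in sham mice rested on 5 sham SB libraries, from cohorts F1, F2, M1 and M2, and on the sham vehicle libraries used above. No gene passed; 8 of 79 chromatin genes had an unadjusted p under 0.05, 5 higher and 3 lower in sham SB mice, which is 10.1% against 7.02% of all genes. Fold changes were above 0 for 47 of 79 and 47.1% of all genes, or for 33 with the transcript length trend removed. Smarcal1 had 46.5, 53.2 and 67.1 CPM in the 3 female and 59.7 and 59.3 CPM in the 2 male sham SB libraries, against 37.8, 52.6 and 59.8 CPM as lowest, median and highest in sham vehicle mice (log2 fold change 0.18 ± 0.071 (SE), unadjusted p = 0.0132 and adjusted p = 0.677). Kmt5c had 15.9, 17.3 and 13.9 CPM in the 3 female and 11 and 9.56 CPM in the 2 male sham SB libraries, against 10.6, 15.2 and 29.9 CPM in sham vehicle mice (log2 fold change -0.36 ± 0.16 (SE), unadjusted p = 0.0266 and adjusted p = 0.677). Its 2 male values were the lowest of the 5 and lay under the lowest sham vehicle library in 1 case. Chd8 had 168, 161 and 159.9 CPM in the 3 female and 159 and 173 CPM in the 2 male sham SB libraries, all within the sham vehicle range but 1, with a fold change of 0.11 ± 0.051. Brd9, a reader in the noncanonical SWI/SNF complex, was at -0.21 ± 0.097. The count of 8 was 1 without male sham SB replicate 2, 2, 13 and 4 without female sham SB replicate 1, 2 and 3, and 2 without male sham vehicle replicate 4. The test of whether SB acted differently in injured and in sham mice gave 1 chromatin gene of 79 with an unadjusted p under 0.05, Kmt5c at 0.36 ± 0.18 (adjusted p = 0.999), against 1.38% of all genes. The interaction term was above 0 for 39 of 79 and 52.2% of all genes. Hdac7, Brd9 and Hdac6 followed at 0.35 ± 0.20, 0.19 ± 0.11 and 0.16 ± 0.098.

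Within each sex the picture was as sparse. In males, 5xCHI vehicle against sham vehicle gave 3 of 79 chromatin genes at an unadjusted p under 0.05, against 3.55% of all genes: Chd8 at 0.12 ± 0.053, Chd1 at 0.24 ± 0.11 and Kdm4c at 0.18 ± 0.078 (SE). The smallest adjusted p was 0.846. Setd2 followed at 0.17 ± 0.094. Fold changes in males were above 0 for 39 of 79 and 50.2% of all genes. Without male sham vehicle replicate 2 the count of 3 was 0, and without replicate 1 or 3 of that group it was 5. In females the same contrast gave 0 of 79, against 3.14% of all genes, with Chd3 at 0.14 ± 0.070, Setd7, a lysine methyltransferase, at -0.14 ± 0.072, Chd8 at 0.062 ± 0.041 and Hdac9 at 0.12 ± 0.081. Fold changes there were above 0 for 38 of 79 and 45% of all genes. Without the 4 libraries that stood apart, 7 of 79 and 1504 of 9636 genes had an unadjusted p under 0.05 in females, a lower share of the chromatin genes than of all genes.

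The difference between the sexes was itself tested, as the male minus the female effect. For injury, 4 of 79 had an unadjusted p under 0.05, against 6.13% of all genes, and none passed after adjustment (smallest adjusted p = 0.786). Chd1, which remodels nucleosomes behind RNA polymerase II, averaged 39 ± 2.55 CPM in male 5xCHI vehicle and 33.1 ± 5.32 CPM in male sham vehicle mice (SD, n = 8 and 5). It averaged 35.5 ± 4.62 CPM in female 5xCHI vehicle and 37.5 ± 5.92 CPM in female sham vehicle mice (n = 12 and 9), for a difference of 0.32 ± 0.13. Kdm4c differed by 0.22 ± 0.099, Setd7 by 0.25 ± 0.12 and Kdm7a, a histone H3 lysine 9 and 27 demethylase, by 0.29 ± 0.14. The difference was above 0 for 37 of 79 and 51.8% of all genes. The count of 4 was 0 without male sham vehicle replicate 2 and 10 without all 4 libraries that stood apart, where 1400 of 9636 genes had such a p.

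For SB in injured mice, males had 0 of 79 chromatin genes at an unadjusted p under 0.05, against 1.88% of all genes, and females had 8, against 7.21%. The female genes of smallest p were Setd1b at 0.27 ± 0.099, Arid1b at 0.13 ± 0.054, Arid1a at 0.14 ± 0.058 and Hdac4 at 0.14 ± 0.061, with a smallest adjusted p of 0.693. Setd1b had lowest, median and highest levels of 52.4, 65.3 and 127 CPM in female 5xCHI SB mice, against 42, 55.9 and 68.3 CPM in female 5xCHI vehicle mice. Its highest value was that of replicate 10, without which its fold change was 0.16 and the count of 8 was 3. Fold changes were above 0 for 58 of 79 in females and 52.7% of all genes, with a median of 0.053, or for 49 of 79 with a median of 0.025 without that library. In males they were above 0 for 41 of 79 and 51.9% of all genes, with Smarce1 at -0.082 ± 0.053, Arid5a at -0.21 ± 0.14, Arid1b at 0.086 ± 0.064 and Hdac9 at -0.11 ± 0.090.

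Of the sex differences of the SB effect, 1 of 79 had an unadjusted p under 0.05, against 0.913% of all genes: Arid5a, at -0.41 ± 0.18 (adjusted p = 1). Without female 5xCHI SB replicate 10 there was none. Arid5a averaged 9.55 ± 1.79 CPM in male 5xCHI SB and 11.1 ± 1.54 CPM in male 5xCHI vehicle mice (SD, n = 8 each), and 13.1 ± 2.37 CPM in female 5xCHI SB and 11.6 ± 2.6 CPM in female 5xCHI vehicle mice (n = 11 and 12). The difference was above 0 for 23 of 79, or 31 without that library, and 48.4% of all genes. Setd1b, Hdac9 and Kdm6b followed at -0.27 ± 0.15, -0.19 ± 0.12 and -0.40 ± 0.26.

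**Figure D3:**
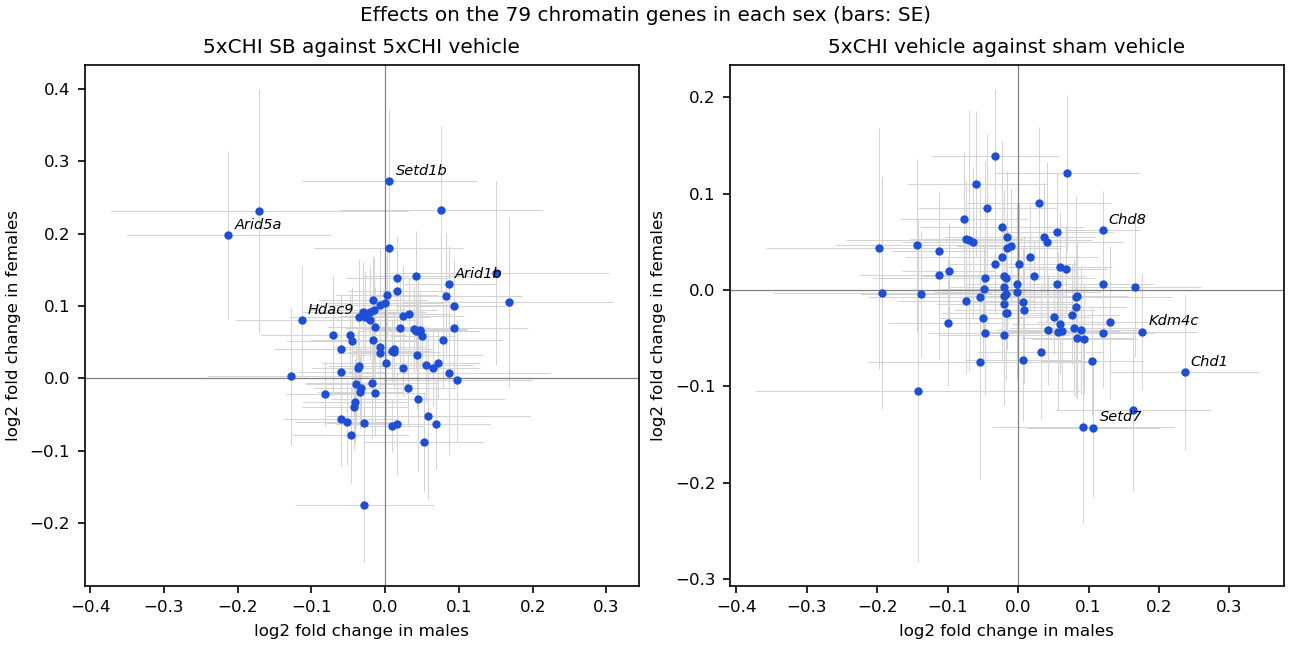
Log2 fold changes of the 79 chromatin genes in males (horizontal axis) and females (vertical axis), with SE bars, for 5xCHI SB against 5xCHI vehicle and for 5xCHI vehicle against sham vehicle. Chd1 lies at 0.24 in males and -0.085 in females, and Arid5a at -0.21 in males and 0.20 in females.

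Between cohorts of the same sex, chromatin genes passed at shares near those of all genes, while no condition gave a passing difference. Among the 4 female cohorts, 35 of 79 chromatin genes passed an adjusted p of 0.05 (edgeR quasi-likelihood F-test, condition accounted for), which is 44.3% against 50% of all genes. With the replicate block the count was 18 of 79, against 27% of all genes. Without the block, all 7 Arid genes passed, with 7 of 11 Hdac, 6 of 9 Setd, 5 of 13 Kdm, 4 of 13 Smarc, 3 of 8 Brd, 2 of 10 Chd and 1 of 8 Kmt genes. Smarcal1 averaged 57.1, 44, 55.5 and 42.4 CPM in F1, F2, F3 and F4 (adjusted p = 9.80e-07). Setd7 averaged 262, 207, 217 and 156 CPM (adjusted p = 1.37e-06), so both were highest in F1 and lowest in F4. Hdac3 ran the other way, with 71.5, 87.4, 80.3 and 106 CPM (adjusted p = 2.60e-06). Arid1b, the gene of smallest p for SB, had 113, 87.1, 104 and 83.6 CPM (adjusted p = 4.99e-06). Hdac1 and Hdac2 also passed, at adjusted p = 1.13e-04 and 0.0335, and Hdac8 and Chd8 did not, at 0.119 and 0.17.

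Among the 4 male cohorts, 4 of 79 passed, which is 5.06% against 3.83% of all genes. Setdb1, a histone H3 lysine 9 methyltransferase, averaged 56.6, 52.2, 61 and 70.4 CPM in M1, M2, M3 and M4 (adjusted p = 0.0114). Brd9 averaged 115, 103, 119.5 and 142 CPM (adjusted p = 0.0279). Chd4 and Arid1b passed at adjusted p = 0.042 and 0.0443, and all 4 genes passed among female cohorts too. With DESeq2 size factors, Chd4 and Arid1b did not pass in males (adjusted p = 0.0607 and 0.0531), and with the replicate block the male count was 2. The count of 4 was 0 without male sham vehicle replicate 1, 2 without male sham vehicle replicate 3, 2 without female sham SB replicate 1 or 3, and 10 without the 4 libraries that stood apart. What a cohort stood for beyond its label is not known here.

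**Figure D4:**
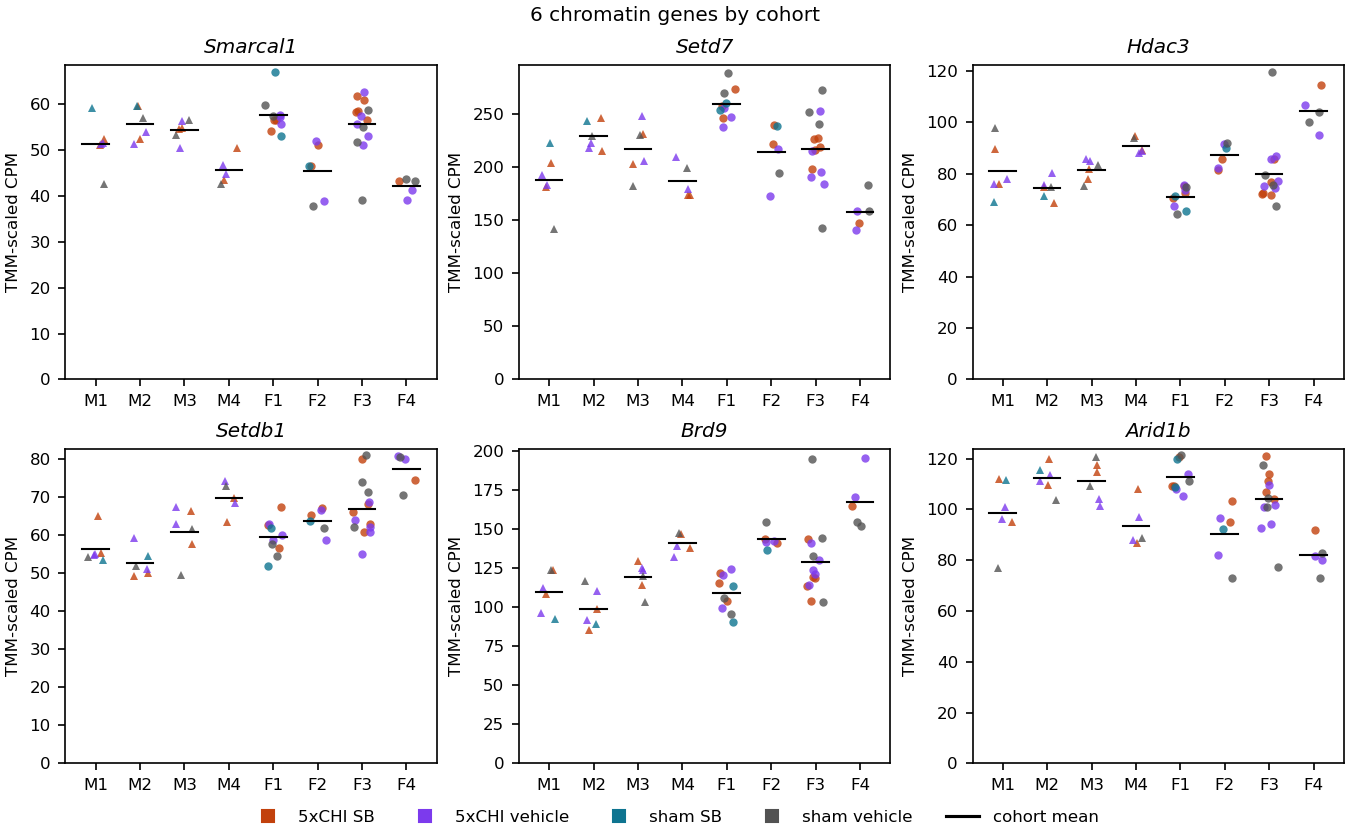
TMM-scaled CPM of Smarcal1, Setd7, Hdac3, Setdb1, Brd9 and Arid1b in every library by cohort (M1 to M4 males, F1 to F4 females), coloured by condition, with bars at cohort means over all libraries. Smarcal1, Setd7 and Arid1b are lowest and Hdac3, Setdb1 and Brd9 highest in F4 among the female cohorts.

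Males were set against females with the cohort as the unit, 4 cohort means of each sex (limma). No chromatin gene passed an adjusted p of 0.05 and no other gene of the table did, against 4 of 79 and 3.07% of all genes at an unadjusted p under 0.05. All 4 were lower in males. Arid5a averaged 10.6 ± 0.655 CPM in males and 12.8 ± 1.69 CPM in females (SD over 4 cohorts each). Kdm6b averaged 33.7 ± 4.46 CPM in males and 40.6 ± 4.39 CPM in females. Kmt5a averaged 44.5 ± 1.07 CPM in males and 49.6 ± 3.55 CPM in females. Hdac5 averaged 196 ± 4.88 CPM in males and 217 ± 16.8 CPM in females. The difference, male minus female, was above 0 for 29 of 79 chromatin genes and 5095 of 9636 genes. The 3 X-linked chromatin genes gave log2 differences, male minus female, of -0.11 ± 0.080 for Hdac8, -0.044 ± 0.076 for Hdac6 and -0.029 ± 0.11 for Smarca1. None of these 3 had an unadjusted p under 0.05, and neither had Chd8 at -0.024 ± 0.059. The count of 4 was 0 without cohort F2, M1 or M3, 2 without M2 and 7 without M4.

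Libraries differed in how the 79 genes stood as a set. The median deviation of the 79 genes from their means over all libraries, in log2 CPM, lay between -0.11 and 0.25 in 5xCHI SB, -0.12 and 0.071 in 5xCHI vehicle, -0.032 and 0.030 in sham SB, and -0.15 and 0.050 in sham vehicle libraries. Female 5xCHI SB replicate 10 was the highest, and the next library stood at 0.074. In female 5xCHI SB replicate 10, 29 of the 79 genes had their highest value of all 58 libraries (36.7%), against 1215 of 9636 genes (12.6%), and 4 of the 79, against 1333 of 9636, had their lowest. The median deviation there was -0.56 for the oligodendrocyte and myelin genes and -0.20 for the oxidative phosphorylation genes. Chd3 reached 1051 CPM there, Kmt2d 497 CPM and Setd1b 127 CPM. Male sham vehicle replicate 2 was the lowest.

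Transcript length moved with these values. Per library, the slope of the deviation of all genes on log10 exon length lay between -0.62 and 0.24 in sham vehicle libraries. It lay between -0.59 and 0.22 in 5xCHI vehicle, -0.29 and 0.24 in 5xCHI SB, and -0.040 and 0.12 in sham SB libraries. Between 5xCHI SB and sham vehicle mice, 34 of the 39 chromatin genes above the family's median length had a fold change above 0, against 18 of the other 40. Across genes, which are not independent replicates, Spearman's rho of fold change with exon length was 0.44 over the 79 and 0.54 over all genes with a length. With the length trend of each library removed, 30 of 79 were above 0 and the median was -0.0091, against -0.0036 over all genes. The medians were then 0.0051 for 5xCHI SB against 5xCHI vehicle, -0.015 for 5xCHI vehicle against sham vehicle and -0.020 for sham SB against sham vehicle.

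**Figure D5:**
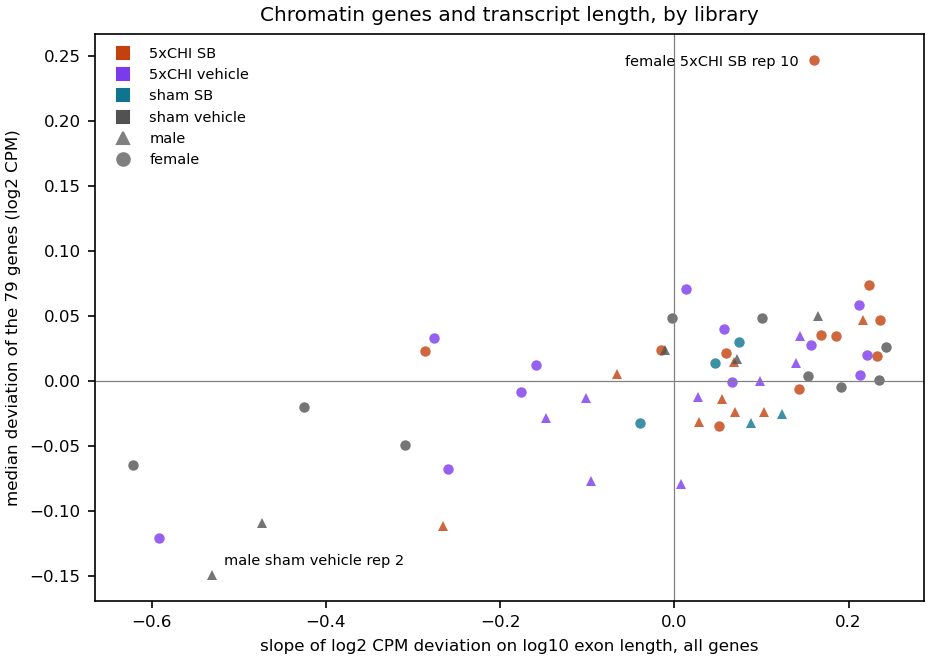
Median deviation of the 79 chromatin genes in each library (vertical axis, log2 CPM) against the library's slope of all genes on log10 exon length (horizontal axis), coloured by condition. The 6 libraries with the steepest negative slopes lie below 0 on the vertical axis. The next in slope, female 5xCHI SB replicate 8 (-0.29) and female 5xCHI vehicle replicate 1 (-0.28), lie above 0, at 0.023 and 0.033. Female 5xCHI SB replicate 10 lies above all others at 0.25.

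Other chromatin genes, from a list of 235 of which 214 were in the table, gave no passing gene in the 3 main comparisons. For 5xCHI vehicle against sham vehicle, 2 of 214 (0.935%) had an unadjusted p under 0.05, against 1.75% of all genes: Smyd3, a methyltransferase, at 0.098 ± 0.049 and Pcgf1, a polycomb subunit, at -0.16 ± 0.070. For 5xCHI SB against 5xCHI vehicle there were 5 (2.34%), below the 7.06% of all genes, all higher, among them Atad2 at 0.19 ± 0.074, Trrap at 0.12 ± 0.054, Ercc6 at 0.11 ± 0.049 and Bicra at 0.15 ± 0.074. For 5xCHI SB against sham vehicle there were 21, 18 higher and 3 lower, which is 9.81%, below the 12.6% of all genes. The 6 of smallest p were Ep400, an ATPase that exchanges histone H2A, at 0.18 ± 0.057, the SWI/SNF subunit Bcl7a at 0.15 ± 0.049, Brpf3 at 0.18 ± 0.060, Ncoa6 at 0.15 ± 0.053, the histone H3 lysine 36 methyltransferase Nsd1 at 0.14 ± 0.050 and the acetyltransferase Kat6b at 0.17 ± 0.061, with adjusted p of 0.329 to 0.347.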

How the data were processed

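The deposited table holds whole-number read counts per gene, not normalized, for 58 libraries. The tools STAR, featureCounts and DESeq2 and the build GRCm39 (mm39) are named, per the submitters' processing notes, without versions. The annotation and the strand setting of counting are not given in the sources used. Libraries were poly(A)-selected and directional, per the labels' protocols. Counts as deposited were fitted with edgeR 4.0.16 (TMM scaling, robust quasi-likelihood test) in 1 model of 8 groups of sex, injury and treatment with cohort within sex (44 residual degrees of freedom), and p-values were adjusted over all 9636 genes (Benjamini-Hochberg, threshold 0.05). Males and females were compared on cohort means of log2 CPM (prior count 2) with limma 3.58.1. DESeq2 1.42.0 served as an alternative. The biological coefficient of variation was 0.123. Every gene was counted at least 101 times in every library. Labels number replicates but do not say that each is a separate mouse, so p-values measure only the spread between these libraries. Exon lengths came from GENCODE vM21 (79 of 79 genes matched by symbol) and promoter windows from RefSeq (GRCm38.p6), another build than the files'; no coordinates were carried over. The code was tested on simulated data. Genes named are the 10 of smallest unadjusted p and the extremes of each family in the 3 main comparisons, the 4 of smallest p elsewhere, X-linked genes, and the highest and lowest levels per length; Chd8 and the class I deacetylases were described in the main comparisons. Values of female 5xCHI SB replicate 10 were chosen for mention after they were seen. The 79 genes and all lists were chosen with earlier results of these data known. Alternatives were other scaling, tests, filters and covariates, a replicate block, a length correction and leaving out libraries. The values of 1 gene among the other chromatin genes are not reported here.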

Additional observations from a re-analysis of the deposited data

Results flagged for a closer look

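8 of 188 combinations of a named gene and a group of 4 to 10 libraries held a library far from the others by Dixon's test at the 95% level; chance flags about 1 in 20. In female sham vehicle replicate 1, one of the libraries that stood apart, Chd7 was highest at 39.5 CPM, against 20.0 to 29.6 CPM in the other 8, Hdac5 highest at 315 CPM, against 170.3 to 217 CPM in the other 8, Smarce1 highest at 69.4 CPM, against 55.3 to 62.4 CPM in the other 8 and Setd5 lowest at 125 CPM, against 155 to 183 CPM in the other 8. In female sham vehicle replicate 7, another of them, Brd1 was lowest at 50.9 CPM, against 61.6 to 69.4 CPM in the other 8. In male 5xCHI SB replicate 6, Arid1a was lowest at 114 CPM, against 145 to 166 CPM in the other 7 and Chd3 lowest at 496 CPM, against 607 to 701 CPM in the other 7. In male 5xCHI SB replicate 8, Chd7 was lowest at 14.2 CPM, against 20.1 to 24.7 CPM in the other 7. The female 5xCHI groups have more than 10 libraries and were not looked at in this way. The causes were not tested.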

How the results depend on the processing

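No chromatin gene passed in any of the 11 comparisons of condition or between the sexes under any alternative run. The median log2 fold change of the 79 genes turned from 0.0053 to -0.015 after injury, from 0.043 to -0.0091 for 5xCHI SB against sham vehicle and from 0.026 to -0.020 for SB in sham mice with the transcript length trend removed; without male sham vehicle replicate 2 or 4 it was -0.0032 or -0.0044 after injury. With the same correction, Brd8 turned to -0.0035 after injury, or -0.026 with the replicate block as well, and Brd3os to 0.024 for 5xCHI SB against sham vehicle with both. With the replicate block alone, Arid5a turned to 0.0027 after injury. Without the 4 libraries that stood apart, an alternative chosen after seeing the data, the injury effect turned to -0.0073 for Setd2, -0.014 for Chd1, 0.048 for Arid5a, -0.020 for Brd8, 0.0010 for Chd7, 0.042 for Kmt5c, -0.014 for Smarca1 and 0.027 for Smarcd3, and Kdm6b turned to 0.018 for 5xCHI SB against sham vehicle. Leaving out 1 library turned Arid5a to 0.0062 (male sham vehicle replicate 3; lowest -0.089), and Brd8 to -0.0031 (highest 0.045) and Smarcd3 to 0.021 (lowest -0.091), both without replicate 2. Between males and females, sham vehicle libraries alone gave 0.047 for Hdac6 and 0.11 for Smarca1. Leaving out cohort F4 gave 0.025 and 0.081, and leaving out M2 gave 0.013 for Smarca1. Among female cohorts the count of 35 was 18 with the replicate block and 22 with the block and the length correction. Among male cohorts the count of 4 was 2 with DESeq2 size factors, 2 with the replicate block, 10 without the 4 libraries that stood apart, and 0 to 4 with 1 library of the groups of 5 or fewer left out. In males, Chd4 and Arid1b missed the threshold with DESeq2 size factors, at adjusted p = 0.0607 and 0.0531. Replicate numbers do not pair the mice: the deviations of 47 same-numbered pairs of libraries correlated at -0.60 to 0.59, with a median of -0.083; 15 pairs were above 0.1, 5 pairs correlated best with their own number and 12 pairs shared a cohort. With the block, the count at an unadjusted p under 0.05 for SB in sham mice was 2, against 8. The causes of these changes were not tested. What depth limits was not tested apart from the spread between libraries.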

Other observations

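The 214 other chromatin genes fall into 9 lists, and the median fold changes of all 9 were small. For 5xCHI SB against sham vehicle mice, 14 of 14 other bromodomain and acetyl-lysine readers had a fold change above 0 (median 0.038), as had 10 of 13 DNA methylation genes (median 0.035), 24 of 37 sirtuins and corepressors (median 0.038), 23 of 33 other histone methyltransferases and COMPASS subunits (median 0.021) and 19 of 31 histone acetyltransferases (median 0.023). Other histone demethylases had 5 of 7 above 0 (median 0.0064), polycomb genes 15 of 29 (median 0.0074), other remodellers 17 of 34 (median -0.0013) and other SWI/SNF subunits 7 of 16 (median -0.0029). No gene of these lists passed the adjusted threshold, and 50.2% of all genes were above 0. For these other chromatin genes, no values with the transcript length trend removed are given. For the 79 genes, that correction took the count above 0 in this comparison from 52 to 30.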
